A study of Mus musculus with 8 samples.

Results

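The 38 genes described here encode the enzymes that make cholesterol and fatty acids in mouse cells and the proteins that set how much of these lipids a cell makes or exports. They were found by gene symbol in all 8 deposited libraries, and they are 38 of 55401 genes counted. They comprise 18 enzymes of sterol synthesis, 4 genes of SREBP control and sterol transport, 3 genes of fatty acid synthesis, 4 desaturases, 3 elongases, 3 long-chain acyl-CoA synthetases and 3 targets of the liver X receptors (LXR). The libraries came from 4 groups of 2 libraries each, all from the spleen of C57BL/6 mice. They were Jmjd1c B KO (KO) germinal center B cells, wild-type (WT) germinal center B cells, Jmjd1c B KO activated B cells and WT activated B cells. Jmjd1c belongs to the jumonji family of histone demethylases. Germinal center B cells, the dividing B cells that mutate and select their antigen receptors, were isolated by flow sorting, whereas activated B cells were captured from spleen on beads through a biotinylated pan-B reagent and then stimulated. The stimulus, how the B cell knockout was made, the deleted exons, the age of the mice and the origin of the replicates were not given in any source used here. The p-values therefore measure only the spread between these libraries, which may be technical.

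Cells sense cholesterol in the endoplasmic reticulum. When sterols are low, the SREBP transcription factors are carried to the Golgi and cut, and the released part moves to the nucleus and activates sterol and fatty acid synthesis genes, while Insig proteins hold SREBP back when sterols are plentiful. Oxysterols, which build up with cholesterol, activate LXR, which turns on the cholesterol exporters Abca1 and Abcg1 and the ubiquitin ligase Mylip, and proliferating lymphocytes are known to use the synthesis arm to build membrane.

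The libraries held 8777425 to 11414559 counts on genes, and the 38 genes took up between 0.280% and 0.319% of those counts. Levels are given as CPM, counts relative to library size after TMM scaling over all 8 libraries, and are given for each library. B cell markers were high in all libraries, but their sum differed between groups. It was 9624 and 9658 CPM in KO and 7619 and 7712 CPM in WT germinal center B cells, and 6851 to 7047 CPM in activated B cells. The 8 germinal center markers summed to 1645 and 1633 CPM in KO and 3115 and 3098 CPM in WT germinal center B cells. In activated B cells they summed to 150.4 and 158 CPM in KO and 161 and 163 CPM in WT. Mitochondrially encoded transcripts made up 9.20% and 9.52% of counts in the KO germinal center libraries, 5.51% and 5.27% in the WT ones, and 2.26% to 2.66% in activated B cells. Jmjd1c itself had 163 and 158 CPM in KO and 194 and 178 CPM in WT germinal center B cells, and 136 and 153 CPM in KO and 274 and 282 CPM in WT activated B cells. Its log2 fold change was -0.20 (SE 0.044, edgeR adjusted p = 1.66e-05) in germinal center B cells and -0.94 (SE 0.059, edgeR adjusted p = 1.81e-11) in activated B cells, and counts over the whole gene include any exon that remains.

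The stretch just upstream of the start site is printed for 6 of the genes, because these 6 span the directions described below. Hmgcs1, Cyp51, Idi1 and Hsd17b7 are sterol synthesis genes, Fads2 is the desaturase with the lowest KO level relative to WT in germinal center B cells, and Abca1 is a cholesterol exporter. Each run holds the 250 bases before the start in RefSeq (GRCm38.p6), read 5′ to 3′ along the strand of the gene. Capitals mark a match on either strand to the sterol regulatory element TCACNCCAC, the CCAAT box (CCAAT, bound by NF-Y, a partner of SREBP), the E-box CACGTG, or the LXR element DR4 (GGTNA followed by GGTCA, 5 bases apart). The windows lie at chr13:119690101-119690350, plus strand for Hmgcs1, chr5:4104698-4104947, minus strand for Cyp51, chr13:8885356-8885605, plus strand for Idi1, chr1:169969206-169969455, minus strand for Hsd17b7, chr19:10101504-10101753, minus strand for Fads2 and chr4:53159896-53160145, minus strand for Abca1.
Hmgcs1: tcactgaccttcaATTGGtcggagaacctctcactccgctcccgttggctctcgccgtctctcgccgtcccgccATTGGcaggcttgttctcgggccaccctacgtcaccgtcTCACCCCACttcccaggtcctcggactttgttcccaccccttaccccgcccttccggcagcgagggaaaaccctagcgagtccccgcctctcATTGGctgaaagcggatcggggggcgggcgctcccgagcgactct
Cyp51: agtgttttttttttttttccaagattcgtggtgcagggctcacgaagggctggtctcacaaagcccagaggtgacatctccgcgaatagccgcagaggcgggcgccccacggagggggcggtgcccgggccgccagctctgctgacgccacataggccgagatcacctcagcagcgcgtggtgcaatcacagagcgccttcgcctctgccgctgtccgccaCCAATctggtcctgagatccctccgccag
Idi1: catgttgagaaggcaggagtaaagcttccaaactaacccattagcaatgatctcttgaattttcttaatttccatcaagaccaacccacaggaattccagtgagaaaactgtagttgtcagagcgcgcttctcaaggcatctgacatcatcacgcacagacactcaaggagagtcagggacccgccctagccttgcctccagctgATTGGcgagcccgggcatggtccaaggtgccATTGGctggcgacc
Hsd17b7: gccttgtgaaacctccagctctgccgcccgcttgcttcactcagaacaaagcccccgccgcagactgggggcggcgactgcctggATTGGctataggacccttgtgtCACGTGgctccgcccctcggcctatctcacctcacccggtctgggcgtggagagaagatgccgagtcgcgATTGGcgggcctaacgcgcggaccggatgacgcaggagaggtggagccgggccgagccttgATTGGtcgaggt
Fads2: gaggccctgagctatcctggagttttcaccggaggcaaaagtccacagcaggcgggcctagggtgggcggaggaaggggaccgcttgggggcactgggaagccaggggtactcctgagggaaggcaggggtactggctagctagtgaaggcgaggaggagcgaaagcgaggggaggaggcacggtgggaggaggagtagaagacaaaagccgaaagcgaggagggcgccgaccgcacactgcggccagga
Abca1: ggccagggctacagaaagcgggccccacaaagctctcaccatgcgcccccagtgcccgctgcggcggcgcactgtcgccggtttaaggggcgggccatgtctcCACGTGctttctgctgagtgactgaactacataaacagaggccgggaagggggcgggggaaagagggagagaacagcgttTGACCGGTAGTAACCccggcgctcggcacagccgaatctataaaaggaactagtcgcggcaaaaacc

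Of the 38 genes, 30 had a promoter in the RefSeq table, and Abcg1, Fdps, Stard4, Fads1, Sqle, Fdft1, Scd2 and Scd1 had none. A gene was counted for a motif if any of its starts had a match, and 4 of the 30 had several starts. The CCAAT box was found for 23 of these 30 genes and for 14 of the 15 sterol synthesis genes. It was found for 37.5% of the 27025 genes in the table. The sterol regulatory element was found in the Hmgcs1 window alone, 137 to 129 bases before the start, and for 1.22% of the 27025 genes. DR4 was found for Abca1, Acsl3, Fasn and Srebf1 and for none of the 15 sterol synthesis genes, against 0.189% of the 27025 genes. In Abca1 it reads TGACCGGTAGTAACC on the printed strand, 67 to 53 bases before the start. The E-box was found for 6 of the 30 genes and for 6.86% of the 27025 genes. In the 6 printed windows no match overlapped another, and Fads2 held none of the 4 motifs. A match describes letters and not binding.

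The first comparison set KO against WT germinal center B cells. In KO there were fewer transcripts of most called sterol synthesis enzymes, of Insig1 and Stard4, and of the polyunsaturated fatty acid desaturases Fads2 and Fads1. There were more transcripts of the cholesterol exporters Abca1 and Abcg1 and of the stearoyl-CoA desaturases Scd1 and Scd2. Among the 38 genes, 8 rose, 17 fell and 13 did not pass the test (edgeR quasi-likelihood test, adjusted p under 0.05), so 65.8% were called, where 50.2% of the 13350 genes tested were called, 25.1% higher and 25.1% lower. The libraries of the groups did not overlap for 32 of the 38 genes, against 72.8% of all genes tested. The median log2 fold change was -0.18 over the 38 genes and -0.00443 over all genes tested, and without WT library 1 it was -0.10 over the 38 genes. All 38 passed the filter on low counts in this and the other comparisons.

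**Figure D1:**
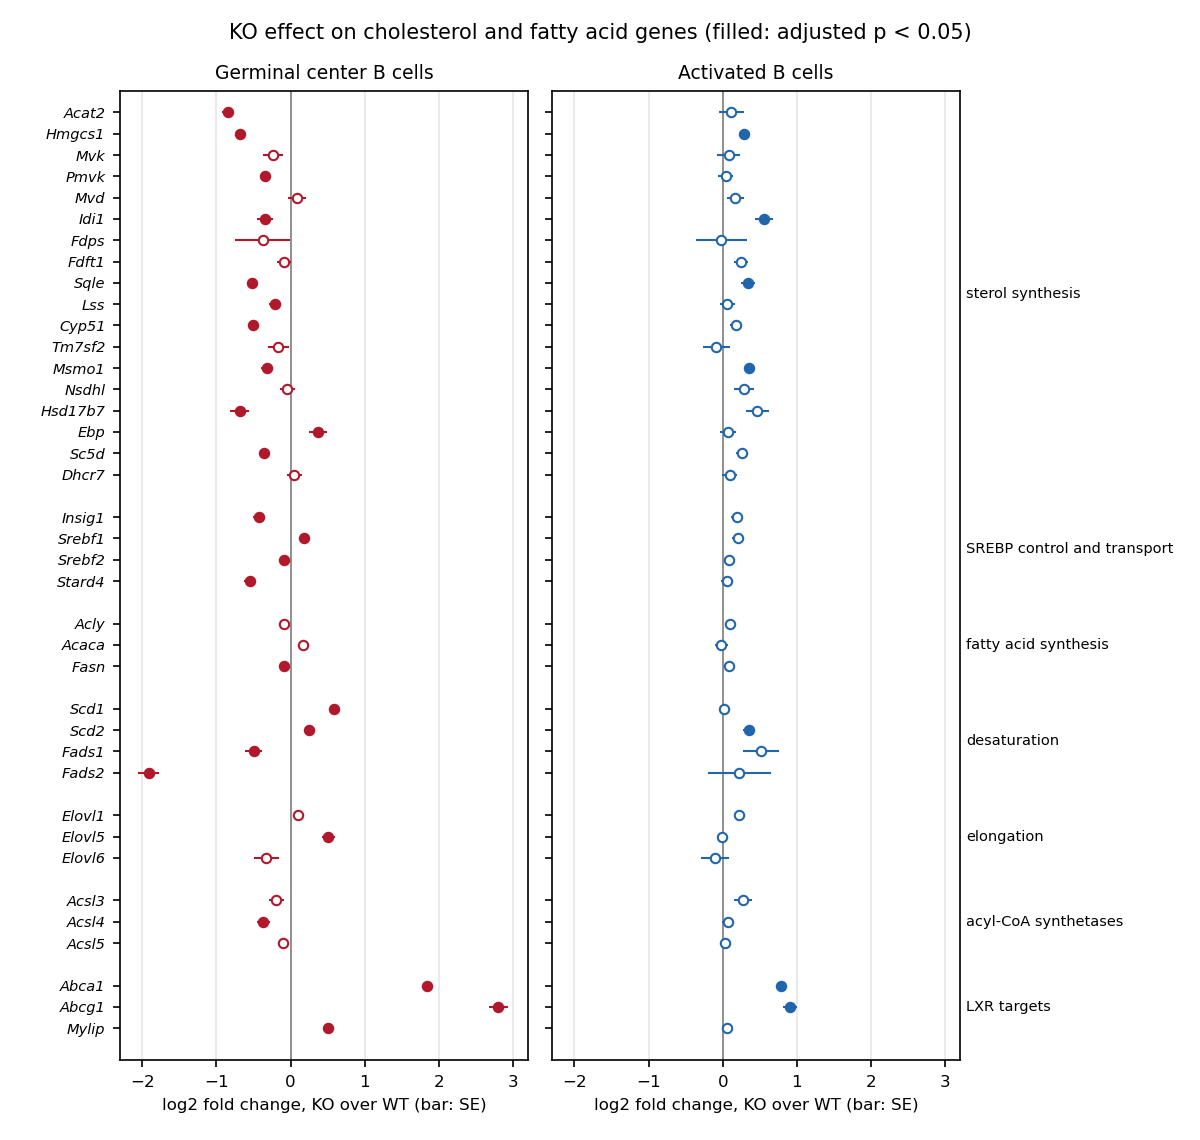
Log2 fold change of KO over WT for each of the 38 genes, grouped by role, in germinal center B cells and in activated B cells, with bars for the SE and filled points for an adjusted p under 0.05. In germinal center B cells the sterol synthesis points lie mostly below 0 while Abca1 and Abcg1 lie at 1.84 and 2.80, and in activated B cells 33 of the 38 points lie above 0.

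In sterol synthesis, 10 of 18 enzymes fell, 1 rose and 7 did not pass the test, with a median log2 fold change of -0.33. Summed over the 18 genes, the level was 600.1 and 616 CPM in KO and 794 and 783 CPM in WT germinal center B cells. Hmgcs1, which makes HMG-CoA early in the pathway, had 69.9 and 66.8 CPM in KO and 116 and 105 CPM in WT cells. Both KO libraries lay well below both WT libraries, a fall to 0.622 of the WT level (log2 fold change -0.69, SE 0.06, edgeR adjusted p = 1.08e-28), and 12.1% of the exon length of this gene overlaps exons on the opposite strand. Acat2, the thiolase that starts the pathway, had 28.0 and 31.6 CPM in KO and 55.5 and 51.9 CPM in WT cells. Its KO libraries were also both lower (log2 fold change -0.84, SE 0.087, edgeR adjusted p = 3.70e-21), and 39.1% of the 50-base stretches of its transcripts also occur in Acat3 or Tcp1, so its counts are uncertain. Sqle, the squalene epoxidase that is a rate-limiting enzyme of the later pathway, had 50.8 and 53.6 CPM in KO and 74.1 and 76.4 CPM in WT cells. The groups did not overlap (log2 fold change -0.52, SE 0.07, edgeR adjusted p = 5.57e-13).

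Cyp51, the lanosterol demethylase, had 77.6 and 83.1 CPM in KO and 118 and 111 CPM in WT germinal center B cells. The KO libraries were again the lower pair (log2 fold change -0.51, SE 0.058, edgeR adjusted p = 1.78e-17). Sc5d, a sterol desaturase near the end of the pathway, had 45.5 and 41.7 CPM in KO and 52.1 and 59.2 CPM in WT cells, with no overlap (log2 fold change -0.35, SE 0.078, edgeR adjusted p = 2.56e-05). Hsd17b7, a ketosteroid reductase of the pathway, had 10.6 and 17.4 CPM in KO and 21.6 and 23.5 CPM in WT cells. Here the KO libraries differed from each other (log2 fold change -0.69, SE 0.13, edgeR adjusted p = 5.75e-07), and the log2 fold change was -0.37 without KO library 1 and -1.09 without KO library 2, and DESeq2 did not call it.

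Among the smaller changes, Msmo1, a methylsterol oxidase, fell by 0.32 on the log2 scale (SE 0.078, edgeR adjusted p = 0.000124). For 4 others the call was lost when a library was left out. Pmvk, the phosphomevalonate kinase, fell by 0.34 but had -0.22 and no call without WT library 2. Idi1, the isomerase of the isoprenoid unit, fell by 0.34 and had -0.29 and no call without WT library 1. Lss, the lanosterol synthase, fell by 0.21, with -0.14 and no call without KO library 2 and -0.15 and no call without WT library 1. Ebp, a sterol isomerase, was the sterol synthesis gene that rose, by 0.37, with 0.30 and no call without KO library 2. DESeq2 called none of Idi1, Lss and Ebp. The 7 enzymes that did not pass were Mvk, Mvd, Fdps, Fdft1, Tm7sf2, Nsdhl and Dhcr7, with log2 fold changes between -0.38 and 0.085. Fdps, the farnesyl diphosphate synthase, was counted at only 15 and 16 reads in KO and 17 and 33 reads in WT cells, and 26.2% of its 50-base stretches also occur in other genes, several of them pseudogenes.

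**Figure D2:**
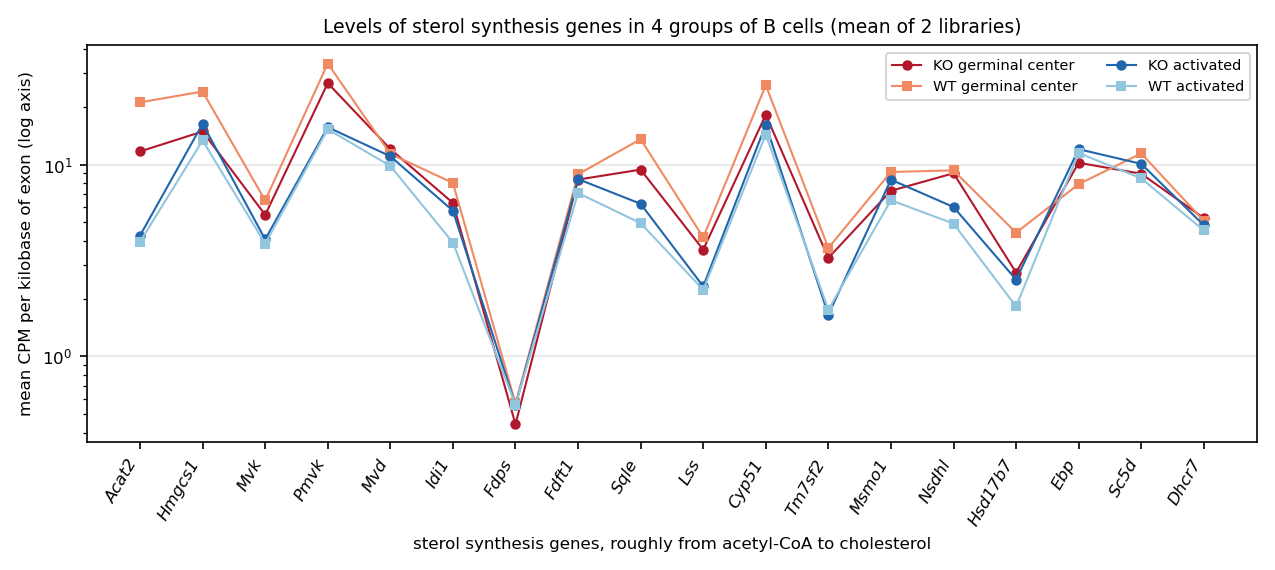
Levels of the 18 sterol synthesis genes in the order of the pathway in the 4 groups. By CPM per library, Hmgcs1, Sqle and Cyp51 had both KO values below both WT values in germinal center B cells. In activated B cells both KO values of these genes were above both WT values, but Cyp51 was not called there (edgeR adjusted p = 0.219).

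The 4 genes of SREBP control and sterol transport were all called, 3 lower and 1 higher. Insig1, the anchor that retains SREBP in the endoplasmic reticulum and is itself an SREBP target, had 45.5 and 46.6 CPM in KO and 65.5 and 59.3 CPM in WT germinal center B cells. Stard4, which carries cholesterol between membranes, had 42.9 and 39.1 CPM in KO and 64.4 and 56.4 CPM in WT cells. Both genes were lower in each KO library than in each WT library, Insig1 with log2 fold change -0.43, SE 0.075, edgeR adjusted p = 5.58e-08 and Stard4 with log2 fold change -0.55, SE 0.078, edgeR adjusted p = 1.31e-11. Srebf1, which encodes the SREBP forms tied mainly to fatty acid synthesis and is itself an LXR target, had 176 and 178 CPM in KO and 159 and 154 CPM in WT cells. It rose (log2 fold change 0.18, SE 0.045, edgeR adjusted p = 0.000168). Srebf2, which encodes the SREBP tied mainly to sterol synthesis, had 379 and 377 CPM in KO and 409 and 395 CPM in WT cells. The step was small, at -0.085 on the log2 scale, and the call was lost without KO library 1 (-0.083), KO library 2 (-0.081) or WT library 1 (-0.059), and with DESeq2, without mitochondrial and immunoglobulin genes, or with all 8 libraries in 1 fit.

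Fatty acid genes were called in both directions. Of the 3 synthesis genes Fasn, the fatty acid synthase, had 254 and 257 CPM in KO and 277 and 268 CPM in WT germinal center B cells. This passed narrowly (log2 fold change -0.089, SE 0.039, edgeR adjusted p = 0.0456), and the call was lost without KO library 1 (-0.075), KO library 2 (-0.10) or WT library 1 (-0.064), and with DESeq2, RLE scaling, no filter on low counts, no mitochondrial and immunoglobulin genes, or all 8 libraries in 1 fit. Acaca, the acetyl-CoA carboxylase, and Acly, the citrate lyase that supplies acetyl-CoA, did not pass, at 0.17 and -0.085 on the log2 scale.

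All 4 desaturases were called, in both directions. Fads2, which inserts the initial desaturation into polyunsaturated fatty acids, had 6.69 and 8.68 CPM in KO and 28.5 and 29.5 CPM in WT germinal center B cells. The KO level was 0.266 of the WT level, the lowest ratio among the 38 genes (log2 fold change -1.91, SE 0.14, edgeR adjusted p = 2.23e-40). Fads1, which acts after Fads2, had 21.4 and 15.9 CPM in KO and 27.2 and 25.7 CPM in WT cells. It also fell, by 0.50 (SE 0.12, edgeR adjusted p = 6.19e-05), but had -0.30 and no call without KO library 2. Scd1, which makes monounsaturated fatty acids, had 454 and 477 CPM in KO and 324 and 298 CPM in WT cells. It rose 1.503-fold (log2 fold change 0.59, SE 0.036, edgeR adjusted p = 1.54e-58). Scd2, its relative with the same activity, had 161 and 162 CPM in KO and 140.4 and 134 CPM in WT cells. It rose as well (log2 fold change 0.24, SE 0.047, edgeR adjusted p = 1.11e-06).

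Among the elongases, Elovl5, which lengthens polyunsaturated chains, had 43.8 and 45.5 CPM in KO and 29.9 and 32.9 CPM in WT germinal center B cells. It rose, and the libraries did not overlap (log2 fold change 0.51, SE 0.089, edgeR adjusted p = 6.02e-08). Elovl1 and Elovl6 did not pass, at 0.10 and -0.33 on the log2 scale. Among the acyl-CoA synthetases, which activate free fatty acids, Acsl4 had 34.5 and 35.2 CPM in KO and 48.8 and 41.8 CPM in WT cells. Acsl4, which prefers arachidonate, fell (log2 fold change -0.37, SE 0.087, edgeR adjusted p = 8.21e-05), and Acsl5 and Acsl3 did not pass, at -0.10 and -0.19.

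The 3 LXR targets rose, with a median log2 fold change of 1.84. In GRCm38 with the GENCODE M21 annotation, the gene bodies lie at chr4:53030787-53159895 (minus strand) for Abca1, chr17:31057675-31117988 (plus strand) for Abcg1 and chr13:45389742-45412022 (plus strand) for Mylip. Abca1, which exports cholesterol to lipid-poor apolipoprotein, had 128 and 134 CPM in KO and 35.2 and 38.2 CPM in WT germinal center B cells. It was 3.57-fold higher in KO (log2 fold change 1.84, SE 0.066, edgeR adjusted p = 7.48e-167). Abcg1, which exports cholesterol to lipoprotein particles, had 44.6 and 45.9 CPM in KO and 7.23 and 5.83 CPM in WT cells. This was 6.99-fold higher in KO, the highest ratio among the 38 genes (log2 fold change 2.80, SE 0.13, edgeR adjusted p = 2.87e-103). Mylip, a ubiquitin ligase for lipoprotein receptors, had 76.0 and 84.6 CPM in KO and 59.5 and 54.7 CPM in WT cells. Its rise was smaller (log2 fold change 0.50, SE 0.067, edgeR adjusted p = 8.80e-13).

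Other measures moved with these genes. Macrophages express Abca1 and Abcg1. In total, 18 monocyte and macrophage markers summed to 153 and 167 CPM in KO and 52.6 and 51.5 CPM in WT germinal center B cells. Mpeg1, the highest of them, had a mean of 77.0 CPM in KO and 16.4 CPM in WT cells. Of the 14 markers tested, 13 were higher in KO and Cd68 was not called, where 25.1% of all genes tested were higher. Markers near 0 in WT passed the filter on low counts only through the KO libraries, so this count favours a rise. Lyz2, a defining marker, had 2.07 and 4.99 CPM in KO and 0.419 and 0.182 CPM in WT cells, C1qa had 2.19 and 1.90 CPM in KO and 0.105 and 0.182 CPM in WT cells, and Fcgr1 was at 0 in WT. The LXR targets summed to 249 and 264 CPM in KO and 102 and 98.7 CPM in WT cells. All 16 proliferation genes tested fell in KO germinal center B cells, as did the germinal center markers given above, where 25.1% of all genes fell. The proliferation genes summed to 5809 and 5834 CPM in KO and 7845 and 7703 CPM in WT cells. The 9 erythroid markers summed to 63.4 and 77.3 CPM in KO and 7.65 and 9.83 CPM in WT cells. The part of these markers in the results on the 38 genes was not tested, and in bulk samples fewer cells of a type and less RNA per cell cannot be told apart.

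**Figure D3:**
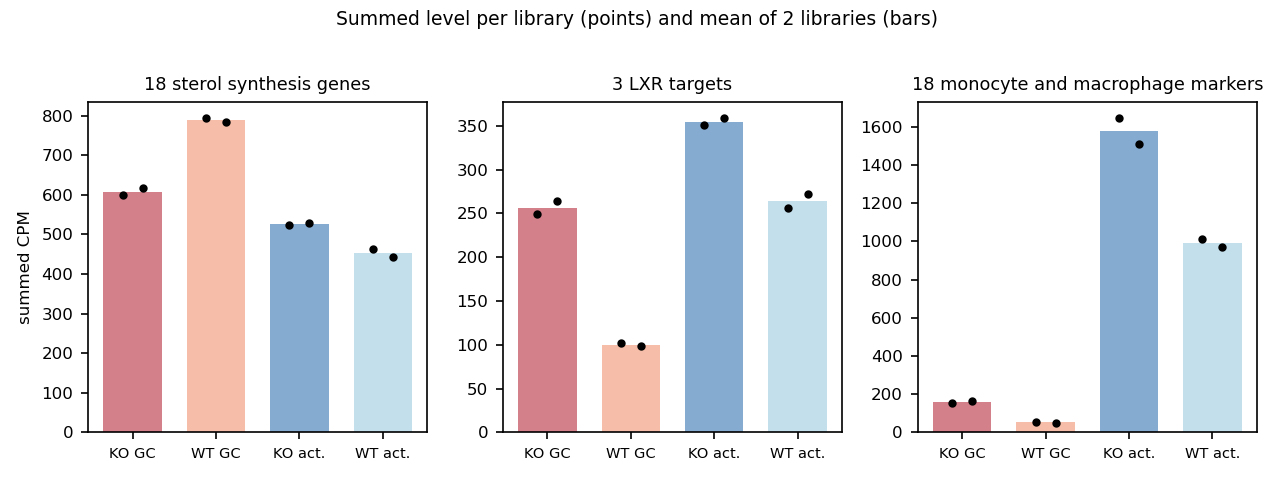
Summed CPM per library (points) and the mean of 2 libraries (bars) for the 18 sterol synthesis genes, the 3 LXR targets and the 18 monocyte and macrophage markers in the 4 groups. The sterol sum is lower in KO than WT germinal center B cells and higher in KO than WT activated B cells, while the other sums are higher in KO in both cell types.

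Of the genes tested in 3 further lists, 62.5% of sterol genes, 53.3% of fatty acid genes and 52.4% of fatty acid oxidation genes were called, where 50.2% of all genes were called. In a list of 25 further sterol genes, 24 were tested, of which 11 rose and 4 fell, with a median log2 fold change of 0.20. Gramd1b, which moves cholesterol from the plasma membrane into the endoplasmic reticulum, had 17.997 and 21.7 CPM in KO and 4.92 and 5.65 CPM in WT germinal center B cells, with no overlap (log2 fold change 1.91, SE 0.17, edgeR adjusted p = 7.39e-29). Npc2, the lysosomal cholesterol carrier, had 54.1 and 56.5 CPM in KO and 25.2 and 27.7 CPM in WT cells, also without overlap (log2 fold change 1.06, SE 0.088, edgeR adjusted p = 2.96e-32). Erlin1, an endoplasmic reticulum protein that restrains SREBP, went the other way, with 34.7 and 34.3 CPM in KO and 57.3 and 52.0 CPM in WT cells (log2 fold change -0.66, SE 0.083, edgeR adjusted p = 3.52e-14).

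Of 25 further fatty acid genes 15 were tested, and 7 rose and 1 fell. Lpin1, a phosphatidate phosphatase, rose by 1.03 on the log2 scale (edgeR adjusted p = 0.000124), and Mlxip, a glucose-sensing transcription factor, by 0.18 (edgeR adjusted p = 0.000118). Hsd17b12, a reductase of the elongation cycle, fell by 0.32 (edgeR adjusted p = 0.000481). Of 24 fatty acid oxidation genes 21 were tested, and 5 rose and 6 fell. Etfa, an electron carrier of mitochondrial oxidation, fell by 0.65 (edgeR adjusted p = 1.41e-18) and Hadha, a subunit of the trifunctional enzyme, by 0.28 (edgeR adjusted p = 2.75e-11), whereas Acaa1a, a peroxisomal thiolase, rose by 0.40 (edgeR adjusted p = 9.55e-10).

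KO and WT activated B cells were compared next. KO cells held more transcripts of Abca1 and Abcg1, and modestly more of Msmo1, Idi1, Hmgcs1, Sqle and Scd2. Among the 38 genes, 7 rose, 0 fell and 31 did not pass the edgeR test, so 18.4% were called, where 6.27% of the 14110 genes tested were called, 4.85% higher and 1.42% lower. At an unadjusted p under 0.05 the numbers were 17 higher and 0 lower. Over the 14110 genes tested they were 1565 higher and 1020 lower. DESeq2 called 2 of the 38 genes higher, Abca1 and Abcg1, and 0 lower. Of the 38 genes 33 had a positive log2 fold change, where 7079 of the 14110 genes did. The median was 0.14 over the 38 genes and 0.00062 over all genes tested. The libraries did not overlap for 23 of the 38, against 47.8% of all genes tested.

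Abca1 had 151 and 160.1 CPM in KO and 84.4 and 95.7 CPM in WT activated B cells. Both KO libraries were higher, 1.73-fold (log2 fold change 0.79, SE 0.066, edgeR adjusted p = 3.57e-09). Abcg1 had 42.9 and 38.7 CPM in KO and 22.2 and 21.5 CPM in WT cells. It was likewise higher in both KO libraries, 1.87-fold (log2 fold change 0.90, SE 0.10, edgeR adjusted p = 2.30e-07), while Mylip did not pass, with 156 and 160.1 CPM in KO and 149.6 and 155 CPM in WT cells. The macrophage markers summed to 1646 and 1511 CPM in KO and 1014 and 969 CPM in WT activated B cells. Of 14 tested, 8 were higher in KO, where 4.85% of all genes tested were higher. Lyz2 alone stood at 866 and 784 CPM in KO and 456 and 413 CPM in WT. The erythroid markers summed to 1129 and 940.3 CPM in KO and 641 and 636 CPM in WT cells. The part of these cells in the levels of Abca1 and Abcg1 was not tested.

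Of the 18 sterol synthesis enzymes 4 rose, and the summed level was 525 and 528 CPM in KO and 463 and 442 CPM in WT activated B cells. Msmo1 had 49.7 and 52.8 CPM in KO and 39.0 and 41.1 CPM in WT cells (log2 fold change 0.36, SE 0.079, edgeR adjusted p = 0.00436). Idi1 had 20.3 and 19.9 CPM in KO and 14.4 and 13.1 CPM in WT cells (log2 fold change 0.55, SE 0.12, edgeR adjusted p = 0.00485). For both genes the KO libraries were the higher pair, and 25.3% of the 50-base stretches of Idi1 also occur in other genes. Hmgcs1 had 73.5 and 76.5 CPM in KO and 63.7 and 59.1 CPM in WT cells (log2 fold change 0.29, SE 0.071, edgeR adjusted p = 0.0107). Sqle had 33.9 and 35.4 CPM in KO and 27.4 and 27.5 CPM in WT cells (log2 fold change 0.34, SE 0.091, edgeR adjusted p = 0.0224). The groups did not overlap for either gene. The call of Hmgcs1 was lost without KO library 2 (0.26) or WT library 2 (0.24). That of Sqle was lost without KO library 2 (0.31), WT library 1 (0.33) or WT library 2 (0.34). DESeq2 called none of the 4.

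Scd2 had 70.6 and 76.5 CPM in KO and 54.6 and 61.0 CPM in WT activated B cells. The KO libraries were higher (log2 fold change 0.35, SE 0.075, edgeR adjusted p = 0.00386), but the call was lost without WT library 1 (0.27) and with DESeq2. Scd1 did not pass, with 741 and 729 CPM in KO and 722 and 732 CPM in WT cells, which overlap. Fads2 rested on only 16 and 13 reads in KO and 9 and 16 reads in WT libraries, so no difference was detectable at this depth. None of the 4 SREBP control genes, 3 fatty acid synthesis genes, 3 elongases and 3 acyl-CoA synthetases passed, with log2 fold changes between -0.10 for Elovl6 and 0.28 for Acsl3. In the further lists, edgeR called 8.33% of sterol, 6.67% of fatty acid and 0% of oxidation genes tested, near the 6.27% of all genes. Of 24 tested sterol genes 2 rose, Gramd1b by 0.39 (edgeR adjusted p = 0.0174) and Npc2 by 0.24 (edgeR adjusted p = 0.0226). Gramd1b was not called without KO library 1 (0.34) or WT library 2 (0.31), Npc2 was not called without KO library 1 (0.16), and DESeq2 and the fit with no filter on low counts called neither. Of 15 further fatty acid genes Hacd4, a dehydratase of the elongation cycle, rose by 0.86 (edgeR adjusted p = 0.000958). Of 22 tested fatty acid oxidation genes edgeR called 0. At an unadjusted p under 0.05, 0 were higher and 1 lower, where 1565 of 14110 genes were higher and 1020 lower.

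**Figure D4:**
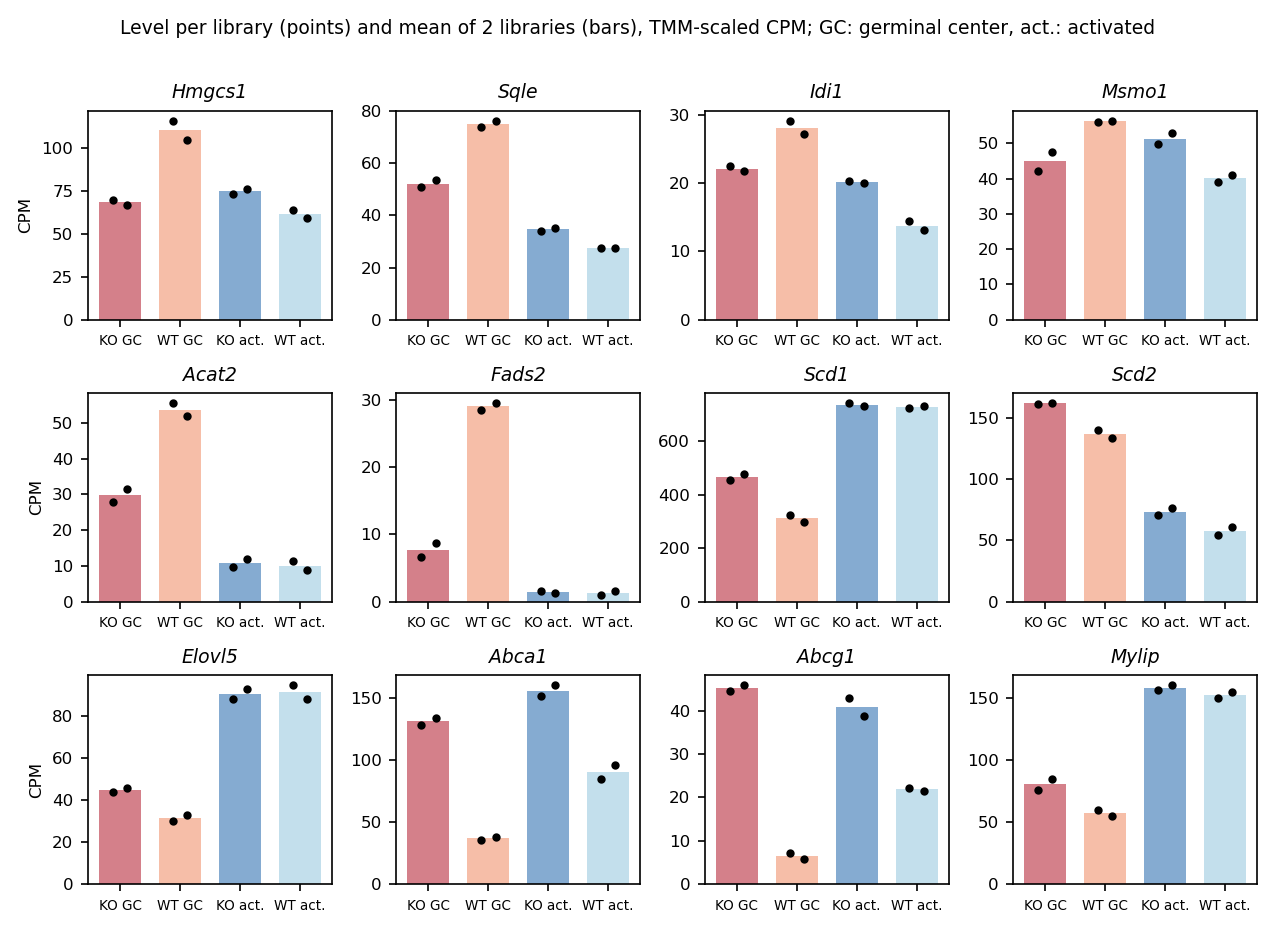
CPM per library for the genes the comparisons turn on, in the 4 groups with KO beside WT for each cell type. Fads2 ranges from 29.5 CPM in WT germinal center library 2 down to 0.927 CPM in WT activated library 1, and Abcg1 is lowest in the WT germinal center libraries.

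The KO effect was then compared between the cell types in a single fit of all 8 libraries, which tests the germinal center log2 fold change minus the activated log2 fold change. Among the 38 genes 5 had a higher and 18 a lower KO effect in germinal center B cells than in the activated ones, so 60.5% were called, where 31.2% of 14992 genes were called, 17.5% higher and 13.8% lower. The median difference was -0.295 on the log2 scale over the 38 genes and 0.034 over all genes, and without WT germinal center library 1 it was -0.18 over the 38 genes. Hmgcs1, Idi1, Msmo1 and Sqle were called in both comparisons, lower in KO germinal center and higher in KO activated B cells. The differences were -0.98 for Hmgcs1 (SE 0.094, edgeR adjusted p = 1.40e-15), -0.86 for Sqle (SE 0.12, edgeR adjusted p = 2.24e-09), -0.90 for Idi1 (SE 0.17, edgeR adjusted p = 5.38e-06) and -0.68 for Msmo1 (SE 0.11, edgeR adjusted p = 6.67e-07). Abca1, Abcg1 and Scd2 were called higher in KO in both cell types. The KO effect was larger in germinal center B cells for Abca1, by 1.04 (SE 0.092, edgeR adjusted p = 1.55e-17), and for Abcg1, by 1.90 (SE 0.17, edgeR adjusted p = 1.87e-17). For Scd2 the difference was -0.11 and did not pass.

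The difference for Fads2 was -2.13 (SE 0.44, edgeR adjusted p = 4.70e-05), with few reads in activated B cells, and for Fads1 it was -1.02 (SE 0.26, edgeR adjusted p = 0.00121). Fads1 had -0.72 and no call without WT activated library 2. Pmvk lost its call without KO germinal center library 1 (-0.35), WT germinal center library 2 (-0.23) or WT activated library 2 (-0.27), and Acsl4 without WT germinal center library 1 (-0.31). The call of Acsl3 was lost without WT germinal center library 2 (-0.37), KO activated library 1 (-0.43) or WT activated library 2 (-0.41). Acly, Srebf2 and Fdft1 had the smallest called differences and lost their calls without any of 5 or 6 of the libraries, with differences then between -0.15 and -0.19 for Acly, -0.12 and -0.18 for Srebf2, and -0.22 and -0.32 for Fdft1. Of 16 proliferation genes 13 also had a lower KO effect in germinal center B cells by the same test, where 13.8% of all genes did. The part of the proliferation genes in these differences was not tested. Monocyte and macrophage markers had a higher KO effect there for 12 of 17 tested, with a median difference of 1.79. Erythroid markers had a higher one for 7 of 9, with a median of 2.94, where 17.5% of all genes did. The part of these markers in the differences for Abca1 and Abcg1 was not tested either.

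Among WT cells, germinal center B cells held more sterol synthesis, Fads1 and Fads2 transcripts and fewer LXR target transcripts than activated B cells. Of the 38 genes 27 were higher, 8 lower and 3 not called, so 92.1% passed, where 82.2% of 14426 genes passed, 40.3% higher and 41.8% lower. The median log2 fold change was 0.51, against -0.034 over all genes, and the libraries did not overlap for 37 of 38 genes, against 90.3% of all genes tested. The WT libraries serve both here and in the KO comparisons. The cell types also differ in how they were isolated, by sorting or by beads and culture, which cannot be told apart from the cell type.

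Of the sterol synthesis enzymes 14 were higher in germinal center cells, 1 lower (Ebp) and 3 not called (Mvd, Dhcr7 and Fdps). Acat2 had 55.5 and 51.9 CPM in WT germinal center and 11.3 and 8.80 CPM in WT activated B cells, 5.29-fold higher (log2 fold change 2.40, SE 0.11, edgeR adjusted p = 8.36e-54). Sqle had 74.1 and 76.4 CPM in WT germinal center and 27.4 and 27.5 CPM in WT activated B cells, 2.72-fold higher (log2 fold change 1.44, SE 0.08, edgeR adjusted p = 4.60e-42). Neither gene overlapped between the groups. Pmvk, Lss, Hmgcs1 and Cyp51 were between 1.78-fold (Hmgcs1, edgeR adjusted p = 6.12e-28) and 2.19-fold (Pmvk, edgeR adjusted p = 2.21e-27) higher. The 16 proliferation genes were higher in germinal center cells too, where 40.3% of all genes tested were. They had sums of 7845 and 7703 CPM in WT germinal center and 584 and 578 CPM in WT activated B cells, and their part in the result was not tested.

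Fads2 had 28.5 and 29.5 CPM in WT germinal center and 0.927 and 1.58 CPM in WT activated B cells, the activated values from 9 and 16 reads. At 22.6-fold this was the largest ratio among the 38 genes (log2 fold change 4.499, SE 0.20, edgeR adjusted p = 1.53e-53), and Fads1 followed at 6.82-fold (log2 fold change 2.77, SE 0.16, edgeR adjusted p = 6.62e-39). Scd2 was 2.35-fold higher in germinal center cells, whereas Scd1 was lower, with 324 and 298 CPM in WT germinal center and 722 and 732 CPM in WT activated B cells (log2 fold change -1.24, SE 0.048, edgeR adjusted p = 2.28e-62). The relatives therefore differed in direction. Fasn had 277 and 268 CPM in WT germinal center and 92.3 and 98.0 CPM in WT activated B cells (log2 fold change 1.505, SE 0.053, edgeR adjusted p = 1.83e-69), and Srebf1 had 159 and 154 CPM in WT germinal center and 69.5 and 76.4 CPM in WT activated B cells (log2 fold change 1.09, SE 0.058, edgeR adjusted p = 3.94e-44). Both were higher in germinal center cells, and Acaca was higher by 0.31 on the log2 scale. Elovl5 was lower in germinal center cells (log2 fold change -1.55, SE 0.075, edgeR adjusted p = 1.86e-49), while Elovl1, Acsl5 and Acsl3 were higher by 0.55, 1.01 and 1.07.

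Insig1 was higher by 0.27 in WT germinal center B cells, and 5 further calls were small and were lost under other settings. Acly (0.11) was not called without WT germinal center library 1 (0.13), WT germinal center library 2 (0.13) or WT activated library 1 (0.057). Stard4 (0.18) was not called without WT germinal center library 1 (0.10) or WT activated library 1 (0.14), and stood at 0.30 without WT germinal center library 2. Elovl6 (0.40) was not called without WT germinal center library 1 (0.39) or WT activated library 1 (0.29). Srebf2 (-0.16) and Acsl4 (-0.25), both lower in germinal center cells, were not called without WT germinal center library 2 (-0.11 for Srebf2 and -0.11 for Acsl4). DESeq2 called none of Acly, Stard4, Elovl6 and Acsl4, and Acly was also lost with RLE scaling, without mitochondrial and immunoglobulin genes and with the replicate block.

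The LXR targets were all lower in WT germinal center B cells than in their activated WT counterparts. Abca1 had 35.2 and 38.2 CPM in WT germinal center and 84.4 and 95.7 CPM in WT activated B cells (log2 fold change -1.30, SE 0.073, edgeR adjusted p = 1.66e-41). Abcg1 had 7.23 and 5.83 CPM in WT germinal center and 22.2 and 21.5 CPM in WT activated B cells (log2 fold change -1.76, SE 0.15, edgeR adjusted p = 1.82e-23). Mylip had 59.5 and 54.7 CPM in WT germinal center and 149.6 and 155 CPM in WT activated B cells (log2 fold change -1.43, SE 0.061, edgeR adjusted p = 2.58e-57). None of the 3 overlapped between the groups. The macrophage markers summed to 52.6 and 51.5 CPM in WT germinal center and 1014 and 969 CPM in WT activated B cells, and their part in these differences was not tested.

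**Figure D5:**
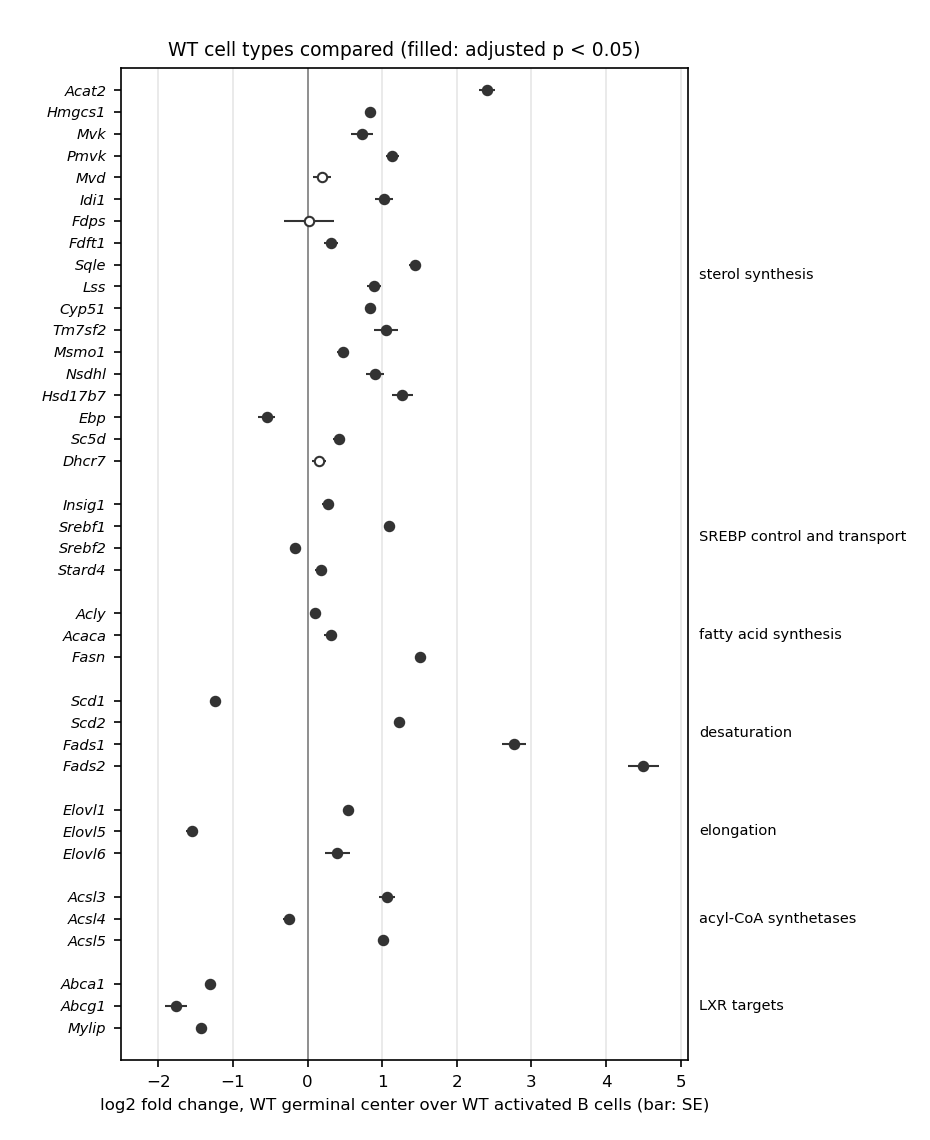
Log2 fold change of WT germinal center over WT activated B cells for the 38 genes, grouped by role, with bars for the SE and filled points for an adjusted p under 0.05. Fads2 lies farthest right at 4.499 and Abcg1 farthest left at -1.76.

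Per kilobase of exon, which allows genes to be ranked against each other, Scd1 had the highest level of the 38 genes in all 4 groups. Its mean level was 95.2 CPM per kilobase in KO and 63.6 in WT germinal center B cells, and 150.2 in KO and 149 in WT activated B cells. Srebf2 was second in all 4, with a mean level between 52.6 CPM per kilobase in KO germinal center and 66.1 in KO activated B cells. Abcg1 stood at a mean of 6.201 CPM per kilobase in KO and 0.894 in WT germinal center B cells, and in the WT group only Fdps was lower. Fdps was the lowest in both germinal center groups at 0.443 in KO and 0.569 in WT, and Fads2 was the lowest in both activated groups at 0.447 in KO and 0.381 in WT.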

How the data were processed

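RNA-seq was analysed from 8 libraries in 4 groups of 2, with groups and replicate numbers taken from the sample titles. Each deposited file gives raw counts of reads for every gene, as made by the authors. Build mm10 and the tools Trimmomatic and DESeq2 are named in the submitters' processing notes. No source used here gives the aligner, the counting program, the strand setting or versions. Of 55401 gene identifiers, 55141 are in GENCODE M21 (GRCm38). The 5 summary rows, which name no gene, were left out. Their shares were 47.2% to 53.9% for reads in no feature and 1.12% to 1.26% for ambiguous reads. The share of reads without a unique alignment differed between the groups. Among germinal center libraries it was 9.21% (KO library 1), 9.23% (KO library 2), 6.88% (WT library 1) and 6.99% (WT library 2). For activated B cells it ranged from 4.37% to 4.75%. Its part in the results for single genes was not tested. Values of Acat2, Fdft1, Fdps, Idi1, Acaca, Hmgcs1 and Tm7sf2 are uncertain, since they share 9.87% to 39.1% of their 50-base stretches with other genes.

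Each comparison was tested on the deposited counts with edgeR 4.0.16 in R 4.3.3 (filterByExpr with a minimum count of 10, TMM scaling, quasi-likelihood F test, Benjamini-Hochberg adjustment over all genes tested), with a threshold of 0.05. KO was compared with WT within a cell type over its 4 libraries, WT germinal center with WT activated B cells over 4, and the KO effects with each other over all 8. CPM levels use 1 TMM scaling over all 8 libraries, whereas fold changes come from the fit of each comparison. Replicates differed by more than sampling noise, at a chi-square of 1.39 to 2.40 per degree of freedom. The procedure was tested on simulated data. Alternatives were RLE scaling, DESeq2 1.42.0, no filter on low counts, leaving out mitochondrial and immunoglobulin genes, all 8 libraries in 1 fit, a replicate block and leaving out each library.

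The 38 genes, their role lists, the further pathway lists and the marker lists were chosen with earlier results of these data known. The rule for full statistics takes the called genes with the lowest p, up to 6 for sterol synthesis and up to 3 for each other list per comparison, and further members are named to account for all 38. Some genes of the pathways are not reported here. Promoter windows are the 250 bases before the start in RefSeq.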

Additional observations from a re-analysis of the deposited data

Results flagged for a closer look

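For the 32 genes listed here, the KO effect differed between germinal center and activated B cells. This is by the test of that difference (edgeR quasi-likelihood test, all 8 libraries in 1 fit, adjusted p under 0.05). Hsd17b12, Lipa and some markers named in the text also passed and are not listed. The 32 are 23 of the 38 genes, where 31.2% of all genes tested passed, and 9 genes of the further pathway lists. These 9 were taken as the called genes with the lowest p in this same test, up to 3 per list, so all of them pass. Of all genes tested in these lists, 45.8% of 24 sterol genes, 25% of 16 fatty acid genes and 21.7% of 23 oxidation genes passed. Values are the germinal center log2 fold change of KO over WT minus that in activated B cells.

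Among sterol synthesis genes the difference was -0.98 for Hmgcs1, -0.86 for Sqle, -0.68 for Cyp51, -0.68 for Msmo1, -1.16 for Hsd17b7, -0.90 for Idi1, -0.96 for Acat2, -0.61 for Sc5d, -0.38 for Pmvk and -0.34 for Fdft1. Among genes of SREBP control and sterol transport it was -0.62 for Insig1, -0.60 for Stard4 and -0.18 for Srebf2. For the fatty acid genes it was -0.18 for Acly, 0.57 for Scd1, -2.13 for Fads2, -1.02 for Fads1, 0.52 for Elovl5, -0.44 for Acsl4 and -0.47 for Acsl3. The LXR targets all had positive differences, with 1.04 for Abca1, 1.90 for Abcg1 and 0.44 for Mylip.

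In the further lists the sterol genes differed by 1.52 for Gramd1b, 0.82 for Npc2 and -0.80 for Erlin1, the fatty acid genes by 0.86 for Lpin1, 0.24 for Mlxip and 0.48 for Mcat, and the oxidation genes by -0.66 for Etfa, -0.35 for Hadha and 0.41 for Acaa1a. Lpin1 was not called without KO germinal center library 2 (0.69) or WT germinal center library 1 (0.70). Mcat was not called without WT germinal center library 1 (0.45) or KO activated library 2 (0.19) or with DESeq2, and stood at 0.83 without KO activated library 1.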

How the results depend on the processing

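Over 98 results for single genes, 1064 values were recomputed under other settings. The direction and the side of the threshold held in 994, the call was lost in 70, which concerned 20 gene results, and the direction turned in 0. These 98 were called genes with the lowest p of each list, which favours steady calls. Of all called members of the 38 genes, DESeq2 kept 19 of 25 in germinal center and 2 of 7 in activated B cells. It kept 31 of 35 between the WT groups and 18 of 23 for the difference. In activated B cells the edgeR counts of 684 genes higher, 201 lower and 7 of the 38 genes higher were the least steady. DESeq2 gave 291 higher, 58 lower and 2 of the 38. Without a filter on low counts there were 397, 68 and 4. With all 8 libraries in 1 fit 408 genes were lower, and leaving out a library gave between 108 (without KO activated library 1) and 275 lower genes. In germinal center B cells DESeq2 called 2065 genes lower against 3352 with edgeR, and for the difference of the KO effects it called 1678 higher against 2621. The cause of these shifts was not tested. Same-numbered libraries did not deviate together (correlations of -0.035 to 0.01). With 2 libraries a group, this shows no shared deviation but cannot exclude that the numbers mark pairs. With the replicate block, 435 genes were lower and 11 of the 38 genes higher in activated B cells, and 27 of the 38 were called in germinal center B cells, 34 between the WT groups and 23 for the difference. With 2 libraries a group, small changes of low genes such as Fdps and, in activated B cells, Fads2 could not be resolved at this depth. Leaving out a library leaves a group of 1, which is then assumed to vary like the others.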

Other observations

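WT germinal center and WT activated B cells also differed in genes of the neighbouring pathways. Of 24 further sterol genes tested, 6 were higher and 14 lower in germinal center cells. Lipa, the lysosomal acid lipase that frees cholesterol, had 15.4 and 14.8 CPM in WT germinal center and 114 and 108 CPM in WT activated B cells, with no overlap (log2 fold change -2.89, SE 0.084, edgeR adjusted p = 1.09e-82). Npc2 had a log2 fold change of -1.96 and Soat1, which esterifies cholesterol, of -1.33. Of 16 further fatty acid genes tested, 5 were higher and 8 lower, among them Lpin1 at -3.34 and Mlxip at -1.35, while Tecr, a reductase of the elongation cycle, was at 0.76. Of 23 oxidation genes tested, 7 were higher and 10 lower, with Etfa at 1.06, Hadha at 0.65 and Ppard, a nuclear receptor for fatty acids, at -1.87. All of the genes named here passed the edgeR test, in which 82.2% of genes passed.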
